A study of Homo sapiens with 24 samples.

Results

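miR-22-3p and miR-22-5p are the 2 strands cut from 1 hairpin, and they were followed here across all 8 groups of a small RNA sequencing study of SBC-3, a line derived from a human small cell carcinoma of the lung. They are 2 of the 2652 mature miRNAs in the count tables and 2 of the 626 that passed the filter on low counts. They were chosen by their counts, which differed between the 2 siRNAs against SFPQ, so that difference, and the change under each SFPQ siRNA by itself, is given below as a description with no test. Each group had 3 libraries, made from wild-type SBC-3 cells harvested 72 h after reverse transfection with 10 nM of 1 reagent. The groups were siSFPQ-3 and siSFPQ-2 (siRNAs against SFPQ), siNONO-4 and siNONO-3 (siRNAs against NONO), ASO-NEAT1-1473 and ASO-NEAT1-1047 (antisense oligonucleotides against the NEAT1 transcript), ASO-Ctrl (a control antisense oligonucleotide) and siCtrl (a control siRNA). The siRNA groups were compared with siCtrl and the antisense groups with ASO-Ctrl. The labels do not say whether the 3 libraries of a group came from separate cultures, so p-values measure the spread between these libraries, which may be technical. The libraries held small RNA, so the loss of SFPQ, NONO and NEAT1 RNA was not measured here.

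SFPQ and NONO are RNA-binding proteins that pair with each other and sit in paraspeckles, nuclear bodies built on the long noncoding RNA NEAT1. A primary miRNA transcript is cut by Drosha into a hairpin and then by Dicer into a short duplex. One strand of that duplex, the guide, is loaded into an Argonaute protein and selects target mRNAs mainly through its seed, while the other strand is mostly degraded. miR-22-3p is the usual guide. It is a widely expressed miRNA that has been described both as a tumour suppressor and as an oncogenic miRNA, with TET2 among its reported targets. Its hairpin lies in an exon of MIR22HG, a long noncoding RNA that responds to cellular stress, rather than in an intron.

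The sequences are shown because both members come from the same duplex yet carry different seeds. They are the RefSeq mature sequences on GRCh38.p14, written 5′ to 3′, with the seed (bases 2 to 8) in capitals.
miR-22-3p: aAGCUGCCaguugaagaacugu
miR-22-5p: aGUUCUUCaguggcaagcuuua
miR-22-3p (MIMAT0000077) lies at chr17:1713914-1713935 and miR-22-5p (MIMAT0004495) at chr17:1713952-1713973, both on the minus strand and 22 bases long. In the GENCODE annotation the MIR22 hairpin spans 1713903 to 1713987, within the noncoding gene MIR22HG (1711493 to 1717174, minus strand). All 19 annotated MIR22HG transcripts hold both strands, a stretch of 60 bases, in a single exon. RNAduplex paired the strands with 19 base pairs, and all 7 seed bases were paired on each strand. None of the other 2368 mature miRNAs in the RefSeq table shared either seed. The closest other mature miRNA matched 15 of 22 bases of miR-22-3p and 13 of 22 bases of miR-22-5p, and each strand had 1 locus in the count tables, so near-identical copies were not among the listed loci.

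The libraries held between 2038382 and 4279644 counts on mature miRNAs, with 927 to 1220 miRNAs detected and 45784 to 136178 counts on 52 spike-in sequences. miR-9-5p and miR-7-5p, both abundant in neural and neuroendocrine cells, averaged 84035 and 12554 CPM (counts scaled to a common library size, with TMM factors). miR-375-3p and miR-124-3p, from the same marker list, averaged only 2.32 and 0.43 CPM. Of the markers of blood cells, miR-451a, miR-144-3p, miR-223-3p and miR-150-5p were all below 0.35 CPM on average. miR-142-3p, from the same blood list, averaged 72.4 CPM (23.5 to 151.5 CPM). The liver miRNA miR-122-5p had no count in any of the 24 libraries. miR-22-3p had 701 to 2155 counts per library and was number 108 of the 626 tested miRNAs by mean CPM over the 24 libraries. miR-22-5p had 55 to 263 counts per library and was number 288.

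By mean TMM-scaled CPM, miR-22-3p, the guide strand, was highest in siSFPQ-2 cells and lowest in siSFPQ-3 cells. It had 334.6, 381.4 and 322.8 CPM in siSFPQ-3 cells and 640.3, 609.1 and 559.3 CPM in siSFPQ-2 cells, against 339.9, 391.9 and 385.9 CPM in siCtrl cells. With TMM, all 3 siSFPQ-2 libraries were above every siSFPQ-3 and siCtrl library, while siSFPQ-3 and siCtrl overlapped. With counts scaled to library totals instead, all 3 siSFPQ-3 libraries were above every siCtrl library. With spike-in totals, siSFPQ-3 and siCtrl overlapped. The NONO siRNAs gave 567.7, 449.8 and 425.5 CPM in siNONO-4 cells and 370.3, 422.1 and 382.4 CPM in siNONO-3 cells. siNONO-4 replicate 1 was the only library outside siSFPQ-2 that reached the siSFPQ-2 range. The NEAT1 oligonucleotides gave 362.9, 364.6 and 360.0 CPM in ASO-NEAT1-1473 cells and 401.1, 346.3 and 348.0 CPM in ASO-NEAT1-1047 cells, against 429.8, 395.6 and 433.9 CPM in ASO-Ctrl cells. With TMM the ASO-NEAT1-1473 libraries lay below all 3 ASO-Ctrl libraries, but with library totals or spike-in totals they overlapped ASO-Ctrl. The ASO-NEAT1-1047 libraries overlapped ASO-Ctrl on each of these scales. Here and below, the share of all tested miRNAs whose groups did not overlap was not counted, so a lack of overlap does not set miR-22 apart.

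miR-22-5p, the strand that is usually degraded, was less abundant and was also highest in siSFPQ-2 cells. It had 38.0, 45.2 and 29.5 CPM in siSFPQ-3 cells and 79.4, 80.8 and 71.0 CPM in siSFPQ-2 cells, against 29.6, 43.2 and 30.8 CPM in siCtrl cells. Every siSFPQ-2 library was above every library of the other 7 groups, of which the highest was siSFPQ-3 replicate 2. It had 41.1, 30.3 and 22.7 CPM in siNONO-4 cells and 27.2, 29.8 and 28.5 CPM in siNONO-3 cells, which overlapped siCtrl. It had 37.6, 31.1 and 29.8 CPM in ASO-NEAT1-1473 cells and 33.9, 33.3 and 27.8 CPM in ASO-NEAT1-1047 cells, against 29.3, 37.8 and 24.1 CPM in ASO-Ctrl cells, and these 3 groups overlapped.

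**Figure D1:**
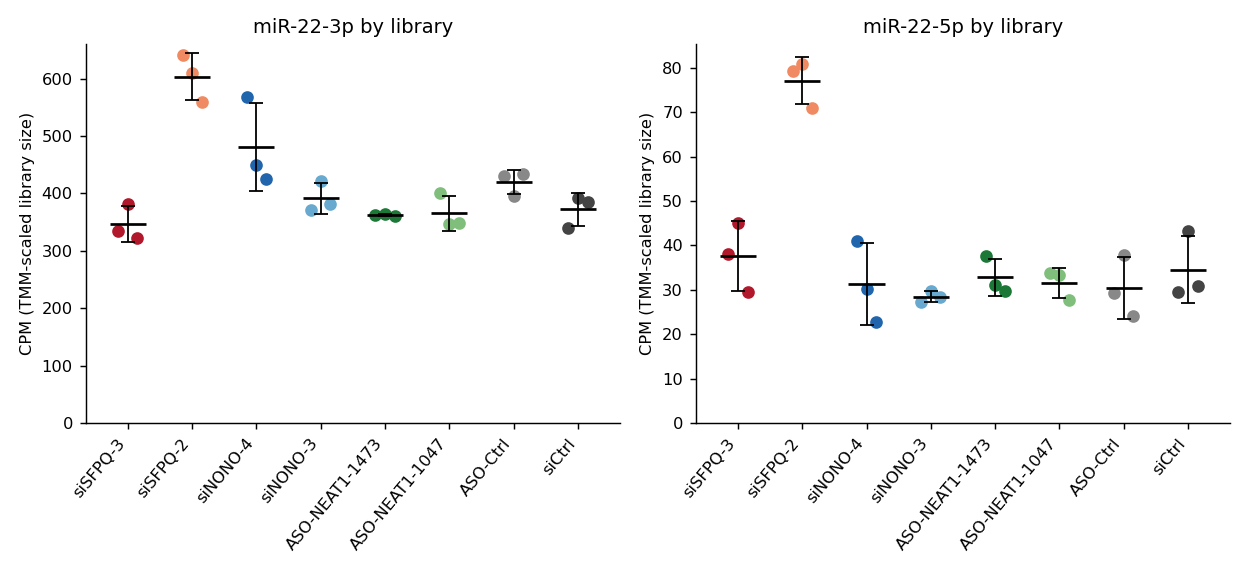
TMM-scaled CPM of miR-22-3p (left) and miR-22-5p (right) in each of 24 libraries, with 3 libraries per group; points are libraries, and horizontal lines with error bars are the group mean ± SD. The siSFPQ-2 libraries lie highest for miR-22-5p (71.0 to 80.8 CPM), and for miR-22-3p only 1 siNONO-4 library (567.7 CPM) reaches their range (559.3 to 640.3 CPM).

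By group mean, miR-22-3p ran from 603 ± 40.9 CPM in siSFPQ-2 cells through 481 ± 76.1 in siNONO-4, 420 ± 21.0 in ASO-Ctrl, 392 ± 27.1 in siNONO-3, 373 ± 28.5 in siCtrl, 365 ± 31.2 in ASO-NEAT1-1047 and 363 ± 2.36 in ASO-NEAT1-1473 cells to 346 ± 31.0 in siSFPQ-3 cells (SD, n = 3 each). Each neighbour in that order overlapped the next. The step from siSFPQ-2 to siNONO-4 (122 CPM) and the step from ASO-Ctrl to siNONO-3 (28.2 CPM) exceeded the larger SD of the 2 groups, and the other 5 steps did not. miR-22-5p ran from 77.1 ± 5.29 CPM in siSFPQ-2 cells through 37.5 ± 7.86 in siSFPQ-3, 34.5 ± 7.51 in siCtrl, 32.8 ± 4.17 in ASO-NEAT1-1473, 31.6 ± 3.36 in ASO-NEAT1-1047, 31.3 ± 9.26 in siNONO-4 and 30.4 ± 6.93 in ASO-Ctrl to 28.5 ± 1.31 in siNONO-3 cells (SD, n = 3 each). Only the first of these steps, 39.5 CPM, exceeded the SD, and there the libraries did not overlap.

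The difference between the SFPQ siRNAs is what chose the members. With siSFPQ-3 over siSFPQ-2, the log2 fold change was -0.80 ± 0.16 for miR-22-3p and -1.04 ± 0.23 for miR-22-5p (SE of the edgeR fit). Against siCtrl, siSFPQ-3 gave log2 fold changes of -0.11 ± 0.16 for miR-22-3p and 0.12 ± 0.23 for miR-22-5p. siSFPQ-2 gave 0.69 ± 0.16 for miR-22-3p and 1.15 ± 0.24 for miR-22-5p. Over all miRNAs, 44.4% passed with siSFPQ-3 and 38.7% with siSFPQ-2. Each siSFPQ-2 library was above all siCtrl libraries for both strands, and with TMM the siSFPQ-3 libraries overlapped siCtrl. With library totals or spike-in totals in place of TMM, the siSFPQ-3 value of miR-22-3p changed sign, to 0.41 and 0.35, where the medians of all tested miRNAs were 0.50 and 0.43.

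Few miRNAs told the SFPQ siRNAs apart in this way. Over all 626 tested miRNAs, 4 (0.639%) passed an adjusted p of 0.05 between siSFPQ-3 and siSFPQ-2, all of them lower in siSFPQ-3, and both miR-22 strands were among these 4 by construction. The other two were miR-548b-3p, a member of a primate-specific family, and miR-1322-3p. miR-548b-3p averaged 4.10 ± 1.25 CPM in siSFPQ-3 cells and 11.7 ± 1.70 CPM in siSFPQ-2 cells (SD, n = 3 each), against 5.77 ± 1.42 CPM in siCtrl cells. miR-1322-3p had no count in siSFPQ-3 cells and 0.98 ± 0.10 CPM in siSFPQ-2 cells, against 4.55 ± 0.64 CPM in siCtrl cells (SD, n = 3), so it lay below siCtrl with both siRNAs, unlike miR-22. Just outside the threshold were miR-7-5p (log2 fold change 0.57 for siSFPQ-3 over siSFPQ-2), miR-489-3p (-0.81) and miR-34a-5p (-0.57), a target of p53. The number past the threshold depended on scaling: in edgeR it was 4 with TMM, 3 with library totals and 1 with spike-in totals. DESeq2 called 4, and 40 had an unadjusted edgeR p below 0.05.

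How far apart the SFPQ siRNAs lay depended on what the counts were scaled to. Spike-ins took 1.63% to 2.05% of counts in the siSFPQ-3 libraries and 1.80% to 3.29% in the siSFPQ-2 libraries. With spike-in totals in place of TMM, the log2 fold change of siSFPQ-3 over siSFPQ-2 was -0.26 for miR-22-3p and -0.48 for miR-22-5p, and the groups overlapped for both strands. On that scale the median of all tested miRNAs was 0.46, against -0.09 with TMM. Relative to the median, miR-22-3p was lower in siSFPQ-3 by a similar amount on each scale, at -0.71 with TMM, -0.71 with size factors, -0.71 with library totals and -0.72 with spike-ins. miR-22-5p was at -0.94 with TMM, -0.94 with size factors, -0.95 with library totals and -0.94 with spike-ins. Whether the amount of RNA per cell differed between these cultures was not tested. In these bulk libraries, fewer cells with much miR-22 and less miR-22 per cell cannot be told apart.

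**Figure D2:**
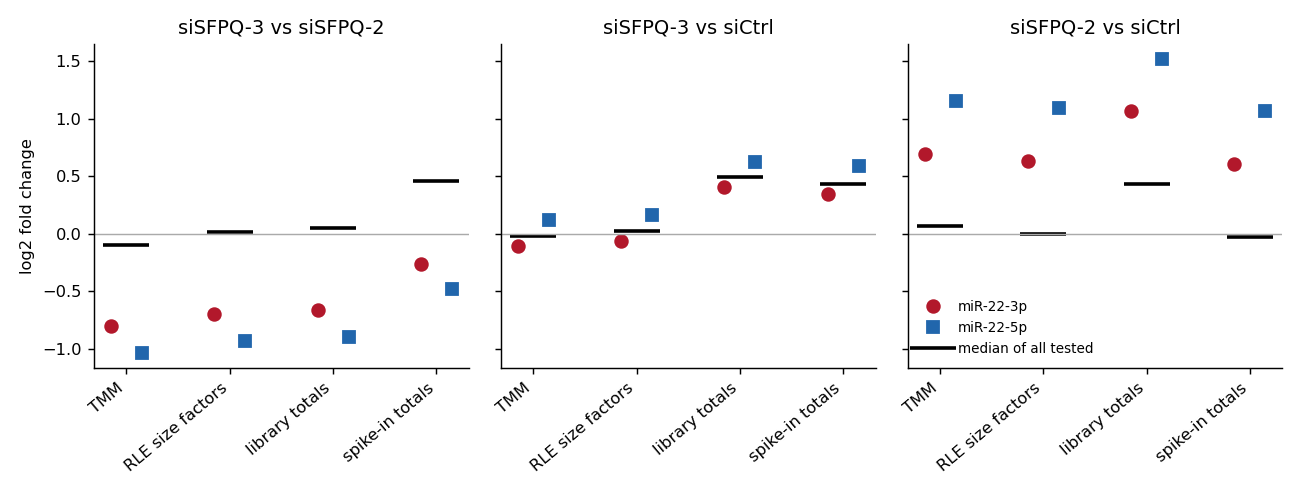
Log2 fold change of miR-22-3p (circles), miR-22-5p (squares) and the median of the 626 tested miRNAs (bars) with 4 ways of scaling the libraries, for siSFPQ-3 over siSFPQ-2, siSFPQ-3 over siCtrl and siSFPQ-2 over siCtrl. Both strands move with the median from scale to scale, and in the siSFPQ-3 over siSFPQ-2 panel miR-22-3p stays 0.71 to 0.72 below it.

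The mean of both SFPQ siRNAs against siCtrl is a separate contrast from the difference between them, and it was tested in the fit over all miRNAs. It uses the same siSFPQ libraries that chose the members, so it is no support from other samples, and it averages reagents that differed. For miR-22-5p the mean was higher than siCtrl, with a log2 fold change of 0.63 ± 0.21 (95% interval 0.20 to 1.07, edgeR adjusted p = 0.0152). miR-22-3p did not pass, with 0.29 ± 0.14 (95% interval 0.01 to 0.58, edgeR adjusted p = 0.0807). SFPQ loss changed many miRNAs: 302 of 626 (48.2%) passed, 25.6% as higher and 22.7% as lower, so 1 of 2 strands passing was close to the share of all miRNAs. The miR-22-5p mean rests on siSFPQ-2, since siSFPQ-3 by itself was at 0.12. It no longer passed without siCtrl replicate 1 (0.49, edgeR adjusted p = 0.0867) or siCtrl replicate 3 (0.53, edgeR adjusted p = 0.0806). With library totals, where the median of all miRNAs was 0.47, miR-22-3p passed as well, at 0.74 (edgeR adjusted p = 0.000435), and relative to the median it was at 0.27.

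All 3 siNONO-4 libraries of miR-22-3p lay above all 3 siCtrl libraries with TMM and with library totals, and overlapped them with spike-in totals, while siNONO-3 overlapped siCtrl on each of these scales. The share of all tested miRNAs with such a separation was not counted. Neither strand passed the test with siNONO-4, where 0.958% of all tested miRNAs did, or with siNONO-3, where 2.56% did, and neither passed in DESeq2. The unadjusted edgeR p of miR-22-3p with siNONO-4 was 0.0272. miR-22-3p had a log2 fold change of 0.37 ± 0.16 with siNONO-4 (95% interval 0.05 to 0.69, edgeR adjusted p = 0.378) and 0.07 ± 0.16 with siNONO-3 (95% interval -0.25 to 0.40, edgeR adjusted p = 0.938). miR-22-5p was at -0.14 ± 0.24 with siNONO-4 (95% interval -0.63 to 0.35, edgeR adjusted p = 0.922) and -0.28 ± 0.24 with siNONO-3 (95% interval -0.78 to 0.21, edgeR adjusted p = 0.777). Between the NONO siRNAs, the 3 siNONO-4 libraries of miR-22-3p all lay above the 3 siNONO-3 libraries, and the log2 fold change was 0.30 ± 0.16 (edgeR adjusted p = 0.857). For miR-22-5p it was 0.15 ± 0.24 (edgeR adjusted p = 1). No miRNA passed between siNONO-4 and siNONO-3 in edgeR (0% of 626), where 38 had an unadjusted p below 0.05 and DESeq2 called 7.

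The SFPQ and NONO knockdowns were compared directly, with siCtrl cancelling out and with the same limit on the siSFPQ mean. For miR-22-5p the mean of both SFPQ siRNAs was higher than that of both NONO siRNAs, by 0.84 ± 0.17 on the log2 scale (95% interval 0.50 to 1.19, edgeR adjusted p = 0.000145), and 56.5% of all miRNAs passed this comparison, 29.7% as higher. miR-22-3p did not pass, at 0.07 ± 0.11 (95% interval -0.15 to 0.30, edgeR adjusted p = 0.588). The ranges of miR-22-5p were 29.5 to 80.8 CPM in siSFPQ cells and 22.7 to 41.1 CPM in siNONO cells, so siSFPQ-3 overlapped siNONO while siSFPQ-2 did not.

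NEAT1 oligonucleotides gave no call for either strand, and 0% of the 626 miRNAs passed with ASO-NEAT1-1473 or with ASO-NEAT1-1047. In edgeR 42 miRNAs had an unadjusted p below 0.05 with ASO-NEAT1-1473 and 5 with ASO-NEAT1-1047, and DESeq2 called 0 in both. miR-22-3p had log2 fold changes of -0.21 ± 0.16 with ASO-NEAT1-1473 (95% interval -0.53 to 0.11, edgeR adjusted p = 0.640) and -0.20 ± 0.16 with ASO-NEAT1-1047 (95% interval -0.52 to 0.12, edgeR adjusted p = 1). miR-22-5p was at 0.11 ± 0.24 with ASO-NEAT1-1473 (95% interval -0.38 to 0.60, edgeR adjusted p = 0.873) and 0.06 ± 0.24 with ASO-NEAT1-1047 (95% interval -0.43 to 0.54, edgeR adjusted p = 1). Between the NEAT1 oligonucleotides, ASO-NEAT1-1473 over ASO-NEAT1-1047 was at -0.01 ± 0.16 for miR-22-3p and 0.05 ± 0.24 for miR-22-5p. No miRNA passed there in edgeR (0%), with 15 at an unadjusted p below 0.05 and 0 called by DESeq2. Against siCtrl, ASO-Ctrl was at 0.17 ± 0.16 for miR-22-3p and -0.19 ± 0.24 for miR-22-5p (edgeR adjusted p = 0.947 for both), where 0.479% of miRNAs passed.

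The change under SFPQ loss and the change under NEAT1 loss, each against its own control, were set against each other in the same fit. The siSFPQ mean here again uses the libraries that chose the members. For miR-22-3p it averages 0.69 with siSFPQ-2 and -0.11 with siSFPQ-3. The SFPQ change minus the NEAT1 change was 0.50 ± 0.19 for miR-22-3p (95% interval 0.11 to 0.90, edgeR adjusted p = 0.0596) and 0.55 ± 0.29 for miR-22-5p (95% interval -0.05 to 1.15, edgeR adjusted p = 0.161). Neither strand passed, where 23.5% of all miRNAs did. miR-22-3p passed this comparison with DESeq2, at 0.46 (DESeq2 adjusted p = 0.0439), with library totals, at 0.93 (edgeR adjusted p = 0.00195), and without siSFPQ-3 replicate 3, at 0.56 (edgeR adjusted p = 0.0483). With library totals the median of all tested miRNAs in this comparison was 0.49. Over all alternatives the adjusted p of miR-22-3p ran from 0.00195 to 0.459.

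The balance between the strands does not depend on library scaling, because both counts come from the same library. miR-22-5p took 10.2%, 10.6% and 8.36% of all miR-22 counts in siSFPQ-3 cells and 11.0%, 11.7% and 11.3% in siSFPQ-2 cells, against 8.01%, 9.92% and 7.40% in siCtrl cells. It took 6.75%, 6.30% and 5.06% in siNONO-4 cells and 6.84%, 6.60% and 6.93% in siNONO-3 cells. All 6 siNONO libraries were below, and 5 of 6 siSFPQ libraries were above, all 3 siCtrl libraries. How many other miRNAs showed such a separation of strand shares was not counted. The share was 9.38%, 7.86% and 7.64% in ASO-NEAT1-1473 cells and 7.79%, 8.77% and 7.39% in ASO-NEAT1-1047 cells, against 6.38%, 8.73% and 5.27% in ASO-Ctrl cells, where the groups overlapped. The ASO-Ctrl libraries, a control, also overlapped the siNONO libraries, and the mean share was 6.79% in both ASO-Ctrl and siNONO-3 cells. The 95% Wilson interval of a single library's share was 2.05 to 3.78 percentage points wide and covers counting error only.

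The share was 6.41% ± 0.70 in siNONO cells (SD, n = 6) and 8.44% ± 1.32 in siCtrl cells (SD, n = 3), a difference of -2.03 percentage points (exact two-sided permutation test, p = 0.0119, the smallest this design allows). Adjusted over the 4 comparisons of shares made, the exact permutation p was 0.0476. With any 1 siNONO or siCtrl library left out, this call was lost, with adjusted exact permutation p between 0.0714 and 0.143. Fewer arrangements are then left, and with the other comparisons as they came out the adjusted p could not fall below 0.05. Leaving out libraries therefore cannot show whether this call is stable. Each n = 6 in these tests pools the 3 libraries of each reagent as if they were interchangeable. For 1 reagent alone, 3 libraries against 3 could not give an exact permutation p below 0.1. The share was 10.5% ± 1.18 in siSFPQ cells (SD, n = 6) against the same siCtrl libraries, a difference of 2.08 percentage points (exact permutation p = 0.0357, adjusted 0.0714). The members were chosen on counts from these siSFPQ libraries, so this comparison is no support from other samples. Without siSFPQ-3 replicate 3, the lowest siSFPQ library, the siSFPQ difference was 2.51 percentage points (adjusted exact permutation p = 0.0357). With each library left out in turn, its adjusted exact permutation p ran from 0.0357 to 0.190. The share was 8.14% ± 0.77 in ASO-NEAT1 cells (SD, n = 6) and 6.79% ± 1.77 in ASO-Ctrl cells (SD, n = 3), a difference of 1.34 percentage points (exact permutation p = 0.143, adjusted 0.190). Without ASO-Ctrl replicate 2 this was 2.31 percentage points (adjusted exact permutation p = 0.0476). With each library left out in turn, the adjusted exact permutation p for ASO-NEAT1 ran from 0.0476 to 0.571. ASO-Ctrl minus siCtrl was -1.65 percentage points (exact permutation p = 0.3, where 0.1 is the smallest this design allows).

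**Figure D3:**
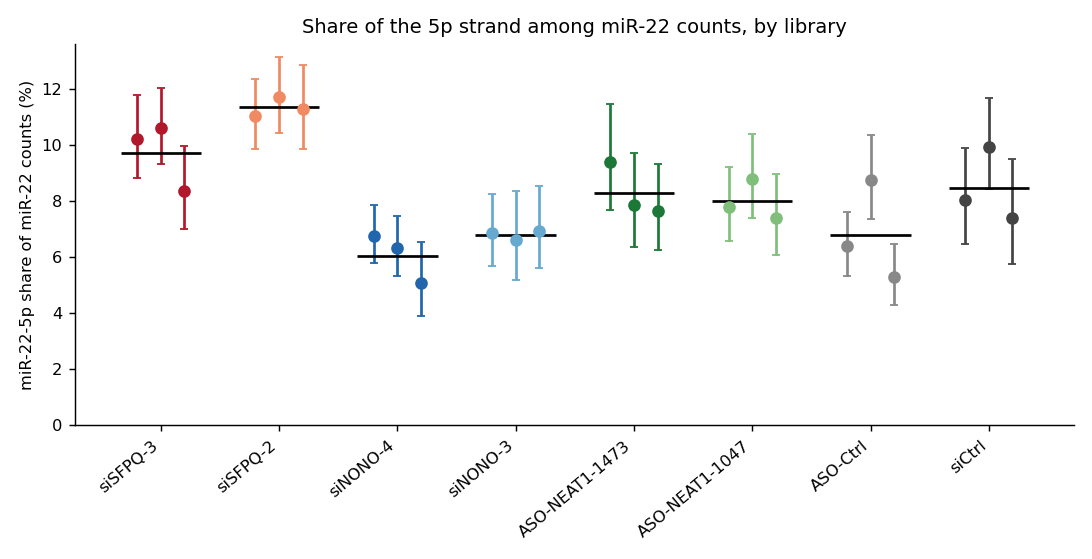
Share of miR-22-5p among all miR-22 counts (%) in each of 24 libraries; points are libraries with their 95% Wilson intervals, and horizontal lines are group means. The 6 siNONO libraries lie between 5.06% and 6.93% and the 6 siSFPQ libraries between 8.36% and 11.7%, with the siCtrl libraries at 7.40% to 9.92%.

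Markers of other cell types differed between some of these groups. The summed level of the 3 fibroblast and vessel markers was 984 to 1312 CPM in siNONO-4 cells and 1395 to 1930 CPM in siNONO-3 cells, against 936 to 1016 CPM in siCtrl cells, and all 3 passed as higher with siNONO-3, where 1.92% of all miRNAs did, though 0 of 3 passed with spike-in totals in edgeR. It was 644 to 710 CPM in siSFPQ-3 cells and 662 to 764 CPM in siSFPQ-2 cells. The 3 epithelial markers summed to 415 to 487 CPM in siSFPQ-3 cells and 371 to 407 CPM in siSFPQ-2 cells, against 90.3 to 148 CPM in siCtrl cells, with 2 higher and 1 lower in the mean of both SFPQ siRNAs, where 25.6% of all miRNAs passed as higher and 22.7% as lower. With library totals or spike-in totals the epithelial list had 2 higher and 0 lower in edgeR. The 5 neuroendocrine and neural markers summed to 63769 to 76473 CPM in siSFPQ-3 cells and 63254 to 86057 CPM in siSFPQ-2 cells, against 105120 to 121404 CPM in siCtrl cells, with 1 higher and 2 lower, and with library totals 1 higher and 0 lower in edgeR. The 3 muscle markers summed to 134 to 188 CPM in siSFPQ-3 cells and 113 to 202 CPM in siSFPQ-2 cells, against 332 to 390.3 CPM in siCtrl cells, with 2 lower, and 1 lower with library totals. Of the 5 blood markers 1, miR-142-3p, was tested, and it did not pass in the mean of both SFPQ siRNAs (-0.52 ± 0.24, edgeR adjusted p = 0.0822). The part of these markers in the miR-22 values was not tested.

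The shift in the miR-22 strand balance was set beside that of all 175 miRNAs with both strands tested, as the change in log2 of the less abundant strand over the more abundant one. In siSFPQ cells minus siCtrl cells, miR-22 changed by 0.35, where the median of the 175 was 0.14 and 61.1% were above 0, so that miR-22 was number 61 from the top. In siNONO cells minus siCtrl cells it changed by -0.42, where the median was 0.005, which put it at number 148. In ASO-NEAT1 cells minus ASO-Ctrl cells it changed by 0.31, where the median was -0.005, which put it at number 28. For siSFPQ-3 minus siSFPQ-2 it was at -0.24, where the median was 0.01. These are descriptions, and the SFPQ and NONO values share the siCtrl libraries.

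**Figure D4:**
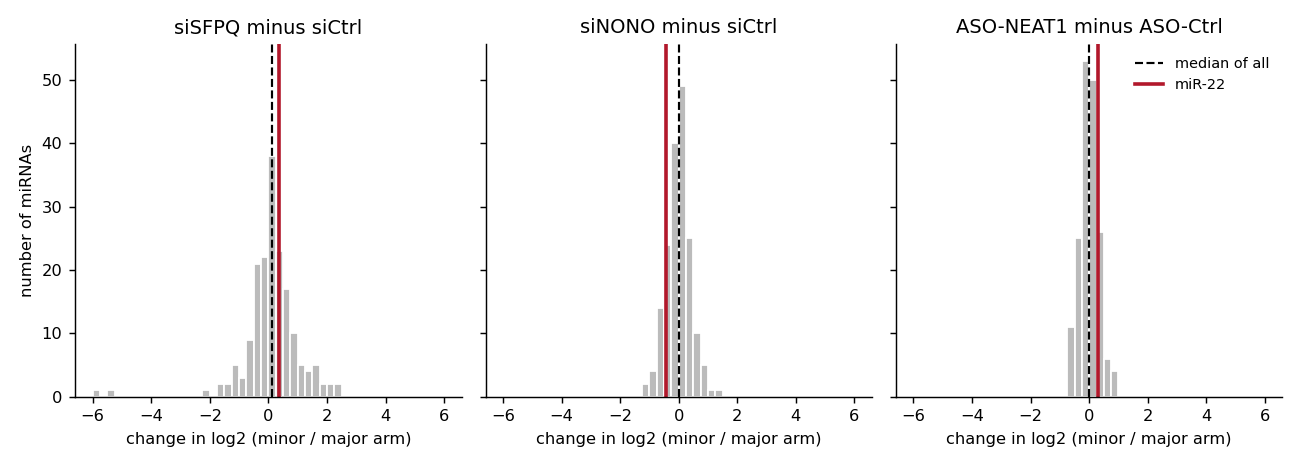
Histograms of the change in log2 of the minor over the major strand for 175 miRNAs, for siSFPQ minus siCtrl, siNONO minus siCtrl and ASO-NEAT1 minus ASO-Ctrl; the red line is miR-22 and the dashed line the median of all 175. miR-22 lies at 0.35, -0.42 and 0.31, within the spread of the other miRNAs in each panel.

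Across the 24 libraries, log2 CPM of the strands correlated with Pearson r = 0.70, and over the 18 libraries without siSFPQ with r = 0.15. With each group's mean taken off, r over the 24 libraries was 0.60. Both strands share each library's scaling and depth, so these values are descriptions. The strands were chosen for moving in the siSFPQ libraries, so the first value is not independent of that choice. Among miRNAs with a mean of at least 10 CPM, the miRNAs most like miR-22-3p were miR-455-3p (r = 0.61 over 24 libraries and 0.32 over the 18 without siSFPQ), miR-1260a (0.54 and 0.61), miR-1260b (0.54 and 0.60), miR-23c (0.54 and 0.56) and miR-582-5p (0.51 and 0.20). miR-1260a and miR-1260b are near copies of each other, and miR-23c of miR-23a and miR-23b, so their counts are uncertain.

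The miRNAs most like miR-22-5p were miR-582-5p (r = 0.84 over 24 libraries and 0.56 over the 18 without siSFPQ), miR-455-3p (0.77 and 0.69), miR-331-3p (0.74 and 0.59), miR-2355-3p (0.73 and 0.15) and miR-550a-3-5p (0.73 and 0.35). With TMM, miR-455-3p, which is processed from an intron of the collagen gene COL27A1, was near siCtrl with siSFPQ-3 and higher with siSFPQ-2. So were both miR-22 strands, but miR-455-3p was picked for likeness over libraries that include siSFPQ, so the match was partly built in. miR-455-3p averaged 83.7 CPM in siSFPQ-3 cells and 134.0 CPM in siSFPQ-2 cells, against 79.6 CPM in siCtrl cells. miR-582-5p averaged 901 CPM in siSFPQ-3 cells and 1255 CPM in siSFPQ-2 cells, against 535 CPM in siCtrl cells, so it was above siCtrl with both siRNAs. miR-2355-3p averaged 40.5 CPM in siSFPQ-3 cells and 50.4 CPM in siSFPQ-2 cells, against 6.19 CPM in siCtrl cells.

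Within 1 Mb of miR-22 on chromosome 17 lay 7 other mature miRNAs, of which 3 were tested, all from the miR-132 and miR-212 hairpins about 336 kb away. miR-132 and miR-212 are transcribed together and respond to CREB in neurons. In the mean of both SFPQ siRNAs against siCtrl, miR-212-3p was higher, with a log2 fold change of 1.33 ± 0.38 (edgeR adjusted p = 0.00646), from 199 counts over all libraries. miR-132-5p was at 0.58 ± 0.25 (edgeR adjusted p = 0.0616) and miR-132-3p at 0.02 ± 0.30 (edgeR adjusted p = 0.972). For siSFPQ-3 over siSFPQ-2 these were -0.37 for miR-212-3p, 0.02 for miR-132-5p and -0.04 for miR-132-3p, against -0.80 and -1.04 for the miR-22 strands.

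Some other miRNAs, like miR-22, lie in exons of noncoding host transcripts. Of 8 listed, 5 were tested, and in the mean of both SFPQ siRNAs 1 was higher (miR-22-5p, chosen on siSFPQ values) and 1 lower, close to the shares over all miRNAs (25.6% higher and 22.7% lower). With library totals 2 were higher and 1 lower. The lower one was miR-675-5p, from the first exon of the imprinted H19 transcript, with -1.38 ± 0.25 (edgeR adjusted p = 8.06e-05). miR-675-3p was at -0.27 ± 0.31 and miR-146a-5p, which is induced by NF-kB, at -0.23 ± 0.22, and neither passed. The median of the 5 was -0.23, against 0.02 over all tested miRNAs. With siNONO-3, where 1.92% of all miRNAs passed as higher, miR-675-3p did (1.32 ± 0.34, edgeR adjusted p = 0.0354), but not with spike-in totals (1.19, edgeR adjusted p = 0.0986), and 0 of 5 passed in edgeR with siNONO-4, ASO-NEAT1-1473 or ASO-NEAT1-1047, where 3, 0 and 0 had an unadjusted p below 0.05. Both strands of miR-155 and the 3p strand of miR-146a averaged below 0.1 CPM and were not tested.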

How the data were processed

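The values are counts per mature miRNA locus that the authors deposited, 1 table per library, made with featureCounts (Subread 2.0.3), per the file headers. Total RNA (100 ng per library, with QIAseq spike-ins) was turned into QIAseq miRNA libraries, per the labels' protocols. Bowtie 1.3.0, Trimmomatic 0.39, DESeq2 1.38.1, UMI-tools 1.1.1 and the build hg38 are listed without roles, per the submitters' processing notes. The sources used here do not say whether counts are molecules or reads.

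A miRNA with several loci (169 of 2652) was represented by its highest locus, since the same reads can be counted at each. Loci were named by RefSeq mature position within 3 bases (2364 miRNAs) or by hairpin (284). miRNAs were kept by filterByExpr with a minimum count of 10, leaving 626 with 99.97% of counts. edgeR 4.0.16 (R 4.3.3) fitted all 24 libraries with 1 term per group (TMM, quasi-likelihood, 16 residual degrees of freedom); p-values were adjusted by Benjamini-Hochberg over the 626 miRNAs, with a threshold of 0.05. The common coefficient of variation between libraries was 0.250. The fit was tested on simulated data. The strand share was tested by exact permutation over libraries (scipy 1.17.1), and strands were paired with RNAduplex (ViennaRNA 2.7.2). Alternatives were DESeq2 1.42.0, other scalings and filters, every locus as its own row, a replicate block and each library left out.

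The members, lists and tests were chosen with earlier results of these data known. Besides the members, the text names every miRNA past the threshold between the SFPQ siRNAs and the next 3, the 5 most like each strand by Pearson r over log2 CPM (prior count 2) with a mean of at least 10 CPM, miRNAs within 1 Mb, and the listed markers and exon-hosted miRNAs. A further list is not reported here. Intervals from counts cover counting error only.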

Additional observations from a re-analysis of the deposited data

Results flagged for a closer look

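miR-22-5p is listed here because the SFPQ and NONO knockdowns differed by a test of the difference itself. The siSFPQ mean uses the libraries that chose the member, so its p-values are no support from other samples. siSFPQ-2 carries that mean, and the siSFPQ-3 libraries overlapped siNONO. The log2 fold change of siSFPQ over siNONO was 0.845 (SE 0.17, edgeR adjusted p = 0.000145), with means of 37.5 ± 7.86 CPM in siSFPQ-3 and 77.1 ± 5.29 CPM in siSFPQ-2 cells, against 31.3 ± 9.26 CPM in siNONO-4 and 28.5 ± 1.31 CPM in siNONO-3 cells (SD, n = 3 each). Over the alternatives its adjusted p ranged from 6.19e-07 to 0.000604. A difference between these knockdowns passed for 56.5% of all tested miRNAs, so it does not set miR-22-5p apart.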

How the results depend on the processing

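Of 188 values of tested comparisons under settings other than leaving out a library, 171 kept their direction and side of the threshold. With library totals, 4 values newly passed: miR-22-3p at 0.74 (SFPQ mean against siCtrl), 0.41 (SFPQ against NONO) and 0.93 (SFPQ change minus NEAT1 change), and miR-22-5p at 0.97 in the last of these. On that scale the medians of all tested miRNAs were 0.47, 0.33 and 0.49 in these comparisons, in the same order. With every locus as its own row, miR-22-3p newly passed at 0.40 in SFPQ mean against siCtrl and at 0.61 in SFPQ change minus NEAT1 change, and DESeq2 gave 0.46 there. With no filter, miR-22-5p in SFPQ mean against siCtrl was at 0.63 but no longer passed (edgeR adjusted p = 0.113). For siSFPQ-2 over siCtrl, library totals moved miR-22-3p to 1.07 and miR-22-5p to 1.52. For siSFPQ-3 over siCtrl, miR-22-5p moved to 0.62 with library totals and 0.58 with spike-ins, and miR-22-3p turned positive at 0.41 with library totals, 0.35 with spike-ins and 0.10 with every locus. For siSFPQ-3 over siSFPQ-2, miR-22-3p moved to -0.66 with library totals, -0.26 with spike-ins and -0.60 with every locus, and miR-22-5p to -0.48 with spike-ins. miR-22-3p with siNONO-3, near 0 throughout, turned to -0.0072 with size factors, -0.041 with spike-ins, -0.032 with a mean of at least 10 CPM and -0.0077 with DESeq2. ASO-NEAT1-1473 over ASO-NEAT1-1047 for miR-22-3p turned to 0.051 with library totals, 0.017 with 10 CPM, 0.049 with the compared groups alone and 0.033 with every locus. The cause of these moves was not tested, except that a scaling moves all miRNAs together.

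Replicate numbers do not pair the libraries by the labels, and only 6 of 28 pairs of groups had all 3 correlations of same-numbered deviations above 0.1, so they are only numbers. With a replicate block the siNONO strand share was at -2.03 percentage points (adjusted exact permutation p = 0.148). The block leaves so few arrangements that this comparison could not pass with the other comparisons as they came out. No other call changed.

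Leaving out each library in turn gave ranges for miR-22-3p of 0.20 to 0.35 for SFPQ over siCtrl, 0.55 to 0.73 for siSFPQ-2 over siCtrl, -0.16 to -0.0022 for siSFPQ-3 over siCtrl, -0.77 to -0.66 for siSFPQ-3 over siSFPQ-2, -0.089 to 0.060 for siNONO-3 over siCtrl, 0.24 to 0.42 for siNONO-4 over siCtrl, 0.25 to 0.44 for siNONO-4 over siNONO-3, -0.34 to -0.12 for ASO-NEAT1-1047 over ASO-Ctrl, -0.26 to -0.11 for ASO-NEAT1-1473 over ASO-Ctrl, -0.067 to 0.16 for ASO-NEAT1-1473 over ASO-NEAT1-1047, 0.03 to 0.18 for ASO-Ctrl over siCtrl, 0.07 to 0.16 for SFPQ over NONO, 0.39 to 0.56 for SFPQ change minus NEAT1 change. For miR-22-5p they were 0.49 to 0.84 for SFPQ over siCtrl, 0.96 to 1.32 for siSFPQ-2 over siCtrl, -0.016 to 0.36 for siSFPQ-3 over siCtrl, -1.09 to -0.83 for siSFPQ-3 over siSFPQ-2, -0.49 to -0.14 for siNONO-3 over siCtrl, -0.37 to 0.043 for siNONO-4 over siCtrl, -0.010 to 0.35 for siNONO-4 over siNONO-3, -0.12 to 0.19 for ASO-NEAT1-1047 over ASO-Ctrl, -0.023 to 0.29 for ASO-NEAT1-1473 over ASO-Ctrl, -0.056 to 0.19 for ASO-NEAT1-1473 over ASO-NEAT1-1047, -0.39 to -0.01 for ASO-Ctrl over siCtrl, 0.80 to 0.98 for SFPQ over NONO, 0.37 to 0.75 for SFPQ change minus NEAT1 change. The strand share differences ranged from 1.56 to 2.82 percentage points for siSFPQ over siCtrl, -2.55 to -1.29 percentage points for siNONO over siCtrl, 0.58 to 2.31 percentage points for ASO-NEAT1 over ASO-Ctrl, -2.62 to -0.89 percentage points for ASO-Ctrl over siCtrl. The full fit of miR-22-3p lay outside its range for siSFPQ-3 over siSFPQ-2 (-0.80) and for siNONO-3 over siCtrl (0.07). In the former, -0.80 was the lowest value under any setting. The filter and TMM factors were computed anew for each library left out.

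Counts of 55 to 263 per library limit miR-22-5p.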
